A study of Mus musculus with 2 samples.

Results

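Cytosolic ribosomal protein genes, which encode the protein parts of the ribosome outside mitochondria, were compared between the thymus of Pla2g10-transgenic mice and that of littermate controls. They were taken by the array's gene names: Rpl or Rps followed by a digit, with Rplp0, Rplp1, Rplp2 and Rpsa. Names starting with Rps6k (kinases) and probes described as pseudogenes were not taken. This gave 82 genes with 137 probes, of 27574 genes on the array. They comprise 49 genes of the large (60S) subunit, 32 of the small (40S) subunit and Rps19bp1, which encodes a binding partner of the S19 protein and is no ribosomal protein. The brightest probe stood for each gene.

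A ribosome decodes messenger RNA on its small subunit and joins amino acids on its large subunit. Its proteins are made in matched amounts, and most of their messenger RNAs begin with a short pyrimidine stretch (the terminal oligopyrimidine, or TOP, motif) through which mTOR signalling adjusts their translation. In the thymus, dividing precursor T cells make new ribosomes. Loss of the large subunit protein L22 in mice impairs the development of alpha-beta T cells there.

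The transgenic mice carried 1 Pla2g10 transgene allele (Pla2g10-Tg/+), and the controls were littermates. All were 6 months old, on a C57BL/6 background and fed standard LFD (CE2). Pla2g10 encodes group X secreted phospholipase A2, and the sources used here do not name the promoter that drives the transgene. Each genotype's RNA was a pool from 4 mice, of which 500 ng was labelled. On array 1 the transgenic pool was red (Cy5) and the control pool green (Cy3), and on array 2 the dyes were exchanged. The Pla2g10 probe was not well above background in any of the 4 channels, so the overexpression named in the labels was not checked by these values.

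Values are log2 ratios of the transgenic over the control thymus, each a mean over arrays 1 and 2 ± their SD (n = 2 arrays). Both arrays were taken to hold the same 1 pool per genotype, so the SD is technical, animals are not replicated, and no test across animals was made. In pooled tissue, fewer cells of a type and less RNA per cell cannot be told apart. A gene counted as measured if its probe was well above background in a genotype's channel on both arrays. That held for 81 of the 82 genes, each of which was well above background in all 4 channels. Rpl3l, a paralogue of the L3 gene known from muscle, was not well above background and is left out of the counts.

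Ribosomal protein genes read slightly higher in the transgenic thymus. Their median log2 ratio was 0.12, or 1.09-fold, against -0.0023 over all 9389 tested genes, and the mean ratio was above 0 for 65 of the 81. The middle of the distribution ran from 0.020 (lower quartile) to 0.21 (upper quartile). Of the 81 genes, 46 (56.8%) were higher on both arrays and 5 (6.17%) were lower on both, against 28.3% and 29.1% of all tested genes. With the log ratios that the scanner software had computed, the split was 35 higher (43.2%) to 10 lower (12.3%). Of all tested genes, 29.3% and 29.1% were higher and lower with those log ratios.

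The differences were small. Only Rps15a and Rps14 were at least 1.2-fold higher on both arrays, as were 1.48% of all tested genes, and no ribosomal protein gene was at least 1.2-fold lower on both, against 1.01% of all tested genes. A mean ratio of at least 2-fold was reached by no ribosomal protein gene and by 0.032% of the tested genes in the higher direction. With the arrays treated as separate measurements, limma's moderated test called none of the 81 genes at an adjusted p under 0.05, against 1.05% of all tested genes higher and 0.66% lower, and the smallest adjusted p was 0.0789, for Rps15a. At an unadjusted p under 0.05 the same limma fit had 22 genes higher and 2 lower, against 6.78% and 5.66% of all tested genes.

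**Figure D1:**
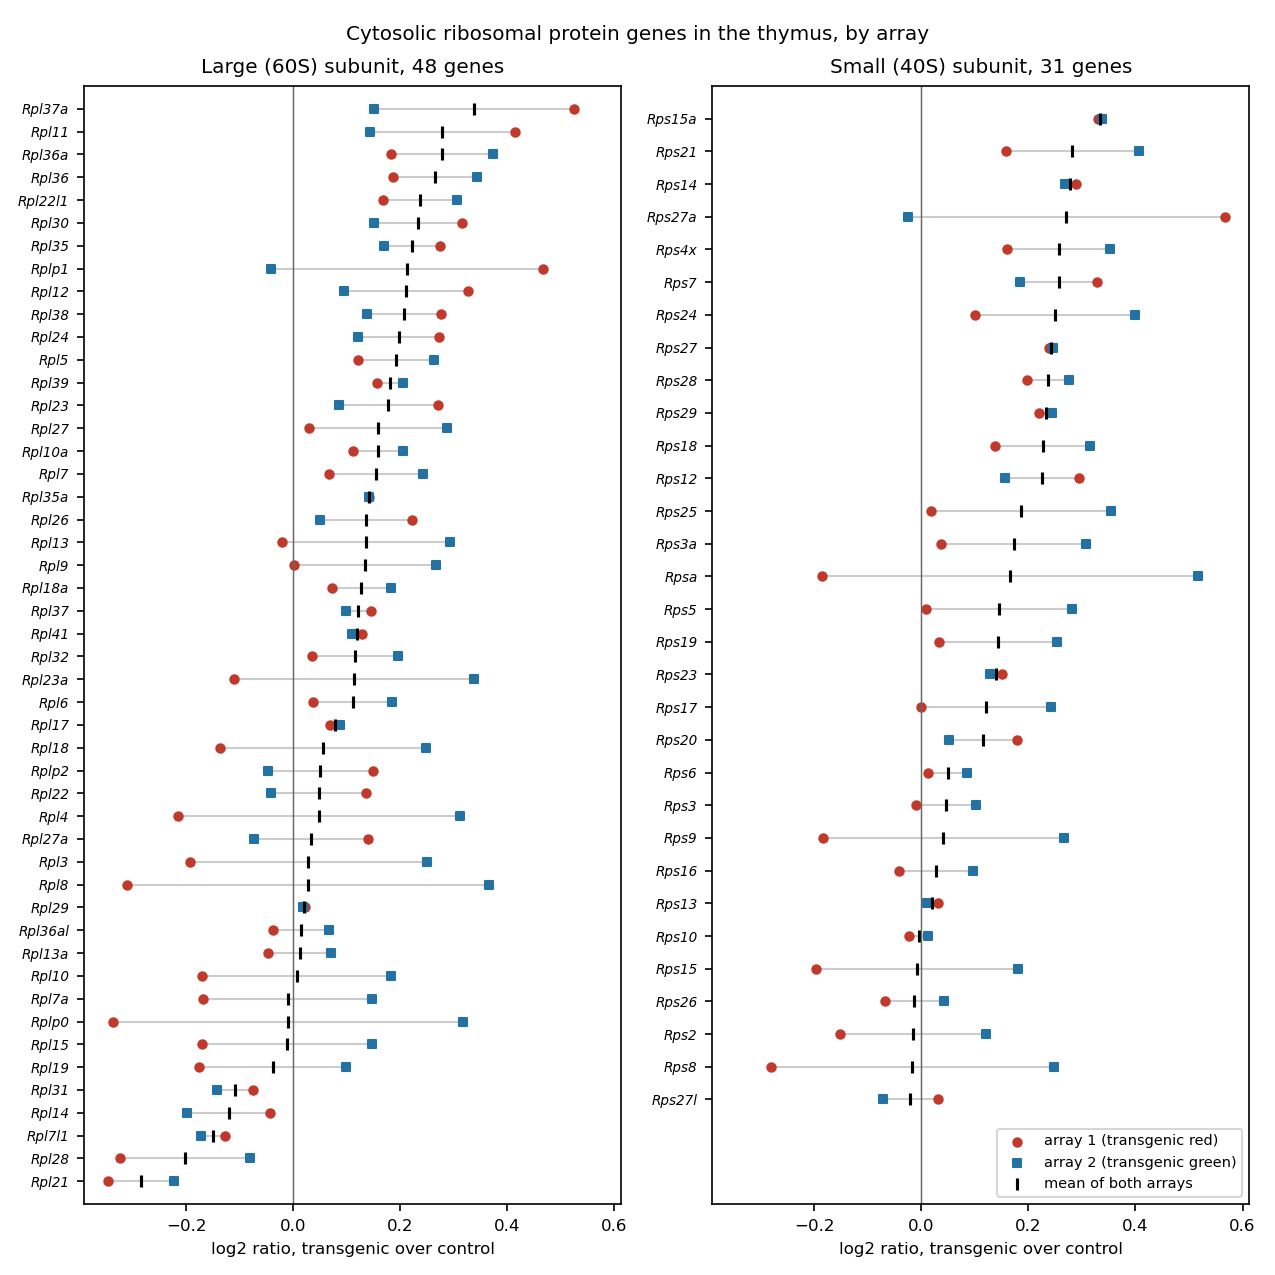
Each line is a ribosomal protein gene with its log2 ratio of transgenic over control thymus on array 1 (red circle, transgenic pool in red) and array 2 (blue square, transgenic pool in green), and a black tick at the mean, for 48 large subunit and 31 small subunit genes (2 of the 81 genes are not drawn). Most ticks lie right of 0, while in 30 of all 81 genes the arrays lie on opposite sides of it.

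Markers of several cell types differed at the same time. Of 13 markers of immature thymocytes, 12 were measured, with 2 higher (Cd4 and Cd1d1) and 9 lower on both arrays. Their summed normalised intensity was 26854 and 23799 on arrays 1 and 2 in the transgenic thymus, against 33530 and 29890 in the control thymus. Rag2 was the marker not above background, while Rag1, Dntt, Ptcra and Cd8a were measured, as markers of the labelled tissue. Fat cell markers summed to 1858 and 1617 in the transgenic thymus against 1104 and 959 in the control thymus, with 6 of 10 measured, 5 higher on both arrays, and Lep, Plin1 and Retn not above background. The 3 measured red cell markers of 7 summed to 5396 and 5387 in the transgenic thymus against 2861 and 2289 in the control thymus, all 3 higher on both arrays, with Slc4a1 not above background. Counts higher and lower on both arrays were 5 and 3 of 8 measured mature T cell markers, 4 and 0 of 6 epithelial, 2 and 1 of 3 B cell, 1 and 2 of 6 macrophage and 4 and 0 of 5 neutrophil markers. Over all tested genes the shares were 28.3% and 29.1%. Mature T cell markers nevertheless summed to less in the transgenic thymus, 4886 and 4159 against 6503 and 4817 in the control thymus, as did B cell markers, 1384 and 1226 against 1527 and 1293. Sums were 3422 and 3394 in the transgenic thymus against 3404 and 2778 in the control thymus for epithelial markers, 1436 and 1253 against 1337 and 1187 for macrophage markers, and 1591 and 1298 against 1120 and 949 for neutrophil markers. The part of these cell types in the ribosomal protein values was not tested.

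The 2 genes at least 1.2-fold higher on both arrays belong to the small subunit. Rps15a, whose S15a protein binds near the centre of the small subunit's RNA, had normalised intensities of 4381 and 4606 on arrays 1 and 2 in the transgenic thymus, against 3485 and 3646 in the control thymus. Both transgenic values lay above both control values. Each array was scaled on its own, so such comparisons across arrays, here and for other genes, also carry differences in brightness between arrays. The share of all tested genes without such overlap was not counted. The log2 ratio was 0.33 ± 0.0051, or 1.26-fold, and ranged from 0.28 to 0.37 over 9 ways of scaling the arrays. Of these 9, the scanner software's log ratios and the deposited ones hold the same values. Leaving out saturated spots was almost the main scaling. Counts over the 9 scalings therefore include repeats. Rps14, a gene within the deleted region of the human 5q- syndrome of poor red cell formation, had 15967 and 14770 in the transgenic thymus, against 13074 and 12264 in the control thymus. Here too the genotypes did not overlap, and the log2 ratio was 0.28 ± 0.014, with 0.21 to 0.34 over the scalings. Both genes were at least 1.2-fold higher on both arrays in 4 of the 9 scalings and neither was in the other 5, which include an offset of 0 and the scanner software's log ratios. Rps27, which encodes a zinc finger protein of the small subunit, was just below the 1.2-fold mark on both arrays, at 0.24 ± 0.0050.

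Rpl37a had the highest mean ratio. Its zinc finger protein belongs to the large subunit, and its intensities were 17730 and 15719 in the transgenic thymus, against 12322 and 14160 in the control thymus. The genotypes did not overlap, but the log2 ratios of 0.53 and 0.15 on arrays 1 and 2 gave a wide SD, 0.34 ± 0.26. Rps21 read 4373 and 4295 in the transgenic thymus against 3921 and 3240 in the control thymus, a ratio of 0.28 ± 0.18. Rpl36a read 4685 and 4164 in the transgenic thymus against 4126 and 3215 in the control thymus, a ratio of 0.28 ± 0.13. On these probes every transgenic value was above every control value for both genes, and array 2 showed the larger difference. Another Rps21 probe, at a level of 11.90 against 11.94 (mean log2 intensity), read -0.014 and 0.38 on arrays 1 and 2. A further Rps21 probe read 0.032 and 0.44, so on array 1 the Rps21 difference depended on the probe. Rpl36 read 3227 and 3075 in the transgenic thymus against 2836 and 2425 in the control thymus, with 0.26 ± 0.11.

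Rps27a encodes the S27a protein fused to ubiquitin, the tag that marks proteins for degradation. Its intensities were 9918 and 6829 in the transgenic thymus, against 6693 and 6948 in the control thymus. The genotypes overlapped: array 1 alone carried the difference, with log2 ratios of 0.57 and -0.025 on arrays 1 and 2. Its mean of 0.27 ± 0.42 is therefore within the spread between arrays.

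Of the 81 genes, 5 were lower on both arrays, all with names of the large subunit. Rpl21 was the lowest: 623 and 537 in the transgenic thymus, against 792 and 627 in the control thymus, a log2 ratio of -0.28 ± 0.086, or 1.22-fold lower. Its probe is annotated to a predicted transcript. The other Rpl21 probe, annotated to a curated transcript, was not well above background. The control value of array 2 lay close to the transgenic value of array 1, so the genotypes separate within an array and barely across arrays. Rpl28, which encodes a large subunit protein that bacteria lack, had 3192 and 2986 in the transgenic thymus against 3995 and 3156 in the control thymus, with -0.20 ± 0.17. Its control value on array 2 lay below the transgenic value on array 1, so the genotypes overlapped. Rpl31 (-0.11 ± 0.048), Rpl14 (-0.12 ± 0.11) and the paralogue Rpl7l1 (-0.15 ± 0.031) came from dim probes, all with normalised intensities under 200 in each channel. A second, dimmer Rpl31 probe read -0.064 and 0.057 on arrays 1 and 2. Rpl19 (-0.038) and Rps27l (-0.020), also among the 8 lowest, had ratios of opposite sign on the arrays.

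The start regions of genes near both ends of this order are shown because many ribosomal protein genes begin transcription in a pyrimidine stretch. Shown are 4 high and 4 low genes with a single start in the RefSeq promoter table (build GRCm38.p6). Each is given with 40 bases before the annotated start and 25 from it on, 5′ to 3′ on the gene's strand. Genes on a chromosome that was left out beforehand could not be chosen. Rps14 was among those left out, although its mean ratio (0.2783) was just above that of Rpl36a (0.2781). Capitals mark runs of at least 7 pyrimidines that begin with C and reach within 20 bases of the start.
Rpl37a, chr1:72711220-72711284, plus strand: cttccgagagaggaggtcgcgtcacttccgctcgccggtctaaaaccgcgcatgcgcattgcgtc
Rps15a, chr7:118116123-118116187, minus strand: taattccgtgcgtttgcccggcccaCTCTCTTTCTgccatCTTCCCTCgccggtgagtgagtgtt
Rpl11, chr4:136053369-136053433, minus strand: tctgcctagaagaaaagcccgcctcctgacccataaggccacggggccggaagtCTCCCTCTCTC
Rpl36a, chrX:134585614-134585678, plus strand: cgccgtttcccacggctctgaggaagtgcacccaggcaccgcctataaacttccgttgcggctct
Rpl31, chr1:39367811-39367875, plus strand: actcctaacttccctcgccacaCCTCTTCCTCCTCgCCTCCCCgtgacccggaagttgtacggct
Rpl14, chr9:120571477-120571541, plus strand: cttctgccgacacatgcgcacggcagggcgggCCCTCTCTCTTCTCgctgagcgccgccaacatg
Rpl7l1, chr17:46782632-46782696, minus strand: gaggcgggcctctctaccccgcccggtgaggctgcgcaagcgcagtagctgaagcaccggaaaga
Rpl28, chr7:4792925-4792989, plus strand: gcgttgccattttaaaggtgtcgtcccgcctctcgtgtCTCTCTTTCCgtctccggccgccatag

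Such a run was present in 2 of the 4 high genes and 3 of the 4 low genes shown. The promoter table matched 62 of the 82 genes, 9 of them with several starts. A run within 20 bases of a start was found in 34 of the 62 (54.8%), against 27.1% of the 27025 genes in the table. The 34 genes with a run had a median log2 ratio of 0.096, with 0.032 and 0.16 on arrays 1 and 2, and the 27 measured genes without it had 0.13, with 0.038 and 0.12. The lowest and highest ratios were -0.20 and 0.33 with a run and -0.15 and 0.34 without it, so the ranges overlapped almost entirely.

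Other letters known from ribosomal protein promoters were searched on both strands of the 300-base window from 250 before to 50 after the start. CCGGAAG, a core bound by ETS family factors such as GABP, was in 24 of the 62 genes (38.7%), against 9.93% of all genes in the table. AAGATGGC, the core bound by YY1, was in 6 (9.68%), against 3.19%. TATAAA, the TATA box, was in 7 (11.3%), against 15.7% of all genes in the table. Genes with CCGGAAG had a median ratio of 0.12 (24 measured) and genes without it 0.14 (37 measured). Genes with AAGATGGC had a median of 0.095 (6 measured) and genes without it 0.13 (55 measured). The 7 genes with TATAAA had a median of 0.18, with 0.16 and 0.28 on arrays 1 and 2, and the 54 without it 0.13, with 0.032 and 0.15, and these splits were not tested. These matches are descriptions of letters in a window, and annotated starts can lie some bases from the real ones.

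The 5S particle, the L5 and L11 proteins with 5S ribosomal RNA, is known for binding Mdm2 when ribosome assembly fails. Both of its genes were higher on both arrays on their own brightest probes. Rpl11 had 11398 and 10617 in the transgenic thymus, against 8556 and 9609 in the control thymus, a log2 ratio of 0.28 ± 0.19. Rpl5 had 6984 and 6709 in the transgenic thymus, against 6423 and 5590 in the control thymus, a ratio of 0.19 ± 0.10. For both genes the genotypes did not overlap on these probes. A probe for a transcript resembling Rpl5, at a level of 12.56 against 12.64, read -0.098 and 0.30 on arrays 1 and 2. A dimmer Rpl5-like probe read -0.015 and 0.12, and a probe resembling Rpl11 read 0.017 and 0.35.

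The stalk of the large subunit, which recruits elongation factors, is built on L12 and P0 with P1 and P2. Its 4 genes gave no common pattern. Rpl12 was higher on both arrays at 0.21 ± 0.16, from 10393 and 8271 in the transgenic thymus against 8293 and 7745 in the control thymus. Rplp1 had ratios of 0.47 and -0.041 on arrays 1 and 2 and Rplp2 of 0.15 and -0.047. Rplp0, which encodes P0, had -0.34 and 0.32. For P0 a brighter probe outside the name rule, under the old name Arbp, read 21767 and 18341 in the transgenic thymus against 19860 and 18334 in the control thymus, with 0.066 ± 0.093. Another Arbp probe, also brighter than the Rplp0 probe, had -0.19 and 0.12 on arrays 1 and 2, a mean of -0.034 ± 0.22. The stalk genes other than Rpl12 thus had array ratios of opposite sign on the probes that the rule took.

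Around the exit of the tunnel through which the new protein chain leaves, 4 of 9 large subunit genes were higher on both arrays and 1, Rpl31, was lower, with a median of 0.078. Rpl35 (0.22 ± 0.074) was the highest and Rpl31 the lowest of these genes. In the head of the small subunit, which moves as messenger and transfer RNA advance, 9 of 14 genes were higher on both arrays and none was lower, with a median of 0.14. Rps28 (0.24 ± 0.055) and Rps29 (0.23 ± 0.017) were among them. Of all tested genes 28.3% were higher and 29.1% lower on both arrays. Rps15 had -0.20 and 0.18 on arrays 1 and 2, and Rps10 had -0.022 and 0.013.

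Rpl22, the gene whose loss impairs T cell development in mice, had 2635 and 1955 in the transgenic thymus, against 2397 and 2012 in the control thymus. The ratio was 0.048 ± 0.13 with opposite signs on the arrays, so no difference was resolved on this probe. A dimmer Rpl22 probe read 0.13 and 0.17 on arrays 1 and 2. The Rpl22 paralogue Rpl22l1, which can replace L22 in the ribosome, had 1853 and 1582 in the transgenic thymus, against 1649 and 1280 in the control thymus. That ratio was 0.24 ± 0.098 and positive on both arrays, although the transgenic value of array 2 lay below the control value of array 1.

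The other paralogues did not share a direction. Rps4l, listed on the array under a clone name and outside the name rule, had 198 and 175 in the transgenic thymus against 172 and 148 in the control thymus, with 0.22 ± 0.033. Rpl36al, a close paralogue of Rpl36a, had 0.014 ± 0.074, against 0.28 for Rpl36a itself. Rps27l, a relative of Rps27 known as a p53 target in human cells, had -0.020 ± 0.072. The 5 measured paralogues had a median of 0.014, with 2 higher and 1 lower on both arrays.

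Rps6, the target of S6 kinase downstream of mTOR, was close to level: 3117 and 2610 in the transgenic thymus, against 3089 and 2459 in the control thymus, with 0.050 ± 0.052. Rps19, the gene most often mutated in human Diamond-Blackfan anaemia, had 3263 and 3079 in the transgenic thymus, against 3191 and 2583 in the control thymus, with 0.14 ± 0.16. Rpsa, which encodes a small subunit protein also known as the laminin receptor, had 1037 and 1164 in the transgenic thymus, against 1179 and 813 in the control thymus. Its array ratios of -0.19 and 0.52 disagreed by more than the mean of 0.17. Rpl13a, a frequent reference gene in PCR, had 4266 and 3865 in the transgenic thymus, against 4407 and 3679 in the control thymus, with 0.012 ± 0.083.

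Some ribosomal proteins have names that the rule did not take. Fau, the ubiquitin-like fusion of S30, had 0.031 ± 0.0099. Rack1, a signalling scaffold on the small subunit, had 0.23 and -0.11 on arrays 1 and 2, and a second, dimmer probe had -0.27 and 0.17. Rpl34, under a clone name on the array, had 0.20 ± 0.037 on its brightest probe and -0.012 and 0.069 on arrays 1 and 2 on a dimmer probe, while Rpl39l was not well above background.

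Between the subunits no difference was resolved. The 48 measured large subunit genes had a median of 0.12 and the 32 small subunit genes 0.14, a difference (large minus small) of -0.026. That difference was 0.036 on array 1 and -0.096 on array 2, so its sign depended on the array. Of the large subunit genes 26 were higher and 5 lower on both arrays (54.2% and 10.4%), and of the small subunit genes 20 were higher and none lower (62.5% higher). All tested genes had 28.3% higher and 29.1% lower. With the log ratios of the scanner software, 19 (39.6%) large subunit genes were higher and 7 (14.6%) lower. For the small subunit 16 (50%) were higher and 3 (9.38%) lower, against 29.3% and 29.1% of all tested genes.

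The 2 arrays did not order the genes alike. Over the 81 genes, Pearson's r between the ratios of array 1 and array 2 was -0.0029, against 0.31 over all 9389 tested genes (both across genes that share their pools and dyes). Array 1 gave a median of 0.037 and array 2 one of 0.16. Of the 81 genes, 23 (28.4%) read brighter in green on both arrays, against 18.1% of all tested genes, and 7 (8.64%) brighter in red on both, against 24.5%. Rpl8 was an example of the first kind, with -0.31 and 0.37, and Rpl3 another, with -0.19 and 0.25.

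**Figure D2:**
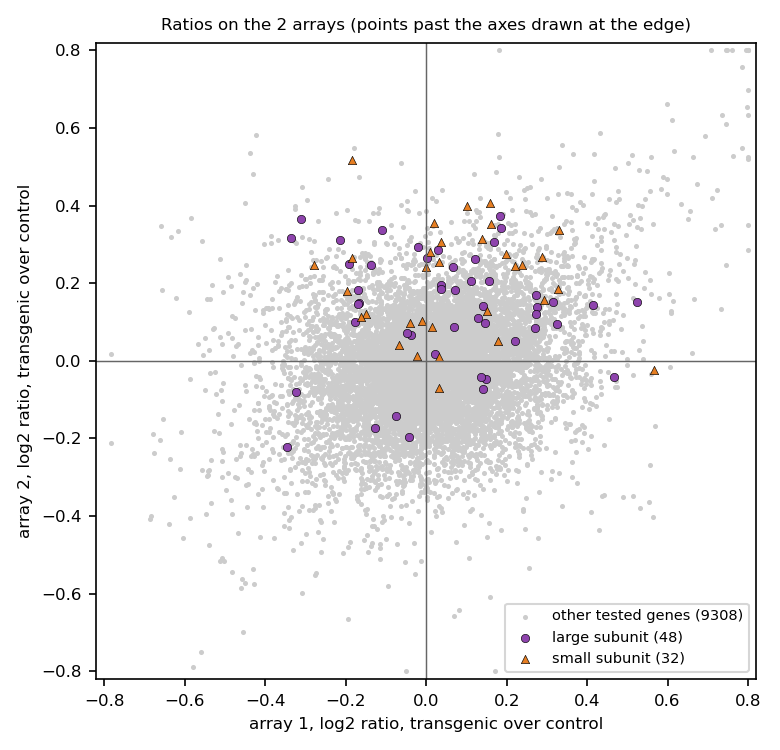
Log2 ratio of transgenic over control thymus on array 1 (horizontal) and array 2 (vertical) for 9308 other tested genes (grey), 48 large subunit genes (purple circles) and 32 small subunit genes (orange triangles). Ribosomal protein genes lie mostly in the upper part, with 46 at upper right, 23 at upper left and 5 at lower left.

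This dye pattern depended on how the dyes were balanced. Before loess, with each array only centred on its median, all 81 genes were brighter in red on both arrays, by medians of 0.98 and 0.85 on the log2 scale. Those medians were 0.39 and 0.44 over all tested genes. They were 0.77 and 0.89 over the 479 other genes with a mean log2 intensity of 10 or more. No ribosomal protein gene was then higher or lower on both arrays, against 2.08% and 4.43% of all tested genes. With that centring the 81 genes' median of the mean ratio was 0.084, against -0.035 over all tested genes and -0.057 over the 479 other bright genes. A mean of both arrays cancels a dye effect only as far as it is equal on them, and what remained was not tested. Over the 9 scalings, which include repeats, the 81 genes' median ran from 0.078 to 0.17 and was positive in each. Which array had the larger median changed. Of the 81 genes, 51 kept a mean ratio above 0 in every scaling, 6 stayed below 0, and 24 changed sign. Those 6 were Rpl7l1, Rpl14, Rpl21, Rpl28, Rpl31 and Rps27l.

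The shift was found among the genes with bright probes. A probe's level was taken as its mean log2 normalised intensity over the 4 channels. The 68 ribosomal protein genes at a level of 10 or more had a median ratio of 0.14, with 43 higher and 1, Rpl28, lower on both arrays. The 479 other genes at that level had a median of -0.0016, with 26.7% higher and 28% lower. The 13 ribosomal protein genes under a level of 10 had a median of 0.011, with 3 higher and 4 lower. Across the 81 genes the mean ratio and the level had an r of 0.51, and across all tested genes -0.026. Bright probes share a large dye effect, and its part in this relation was not tested.

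**Figure D3:**
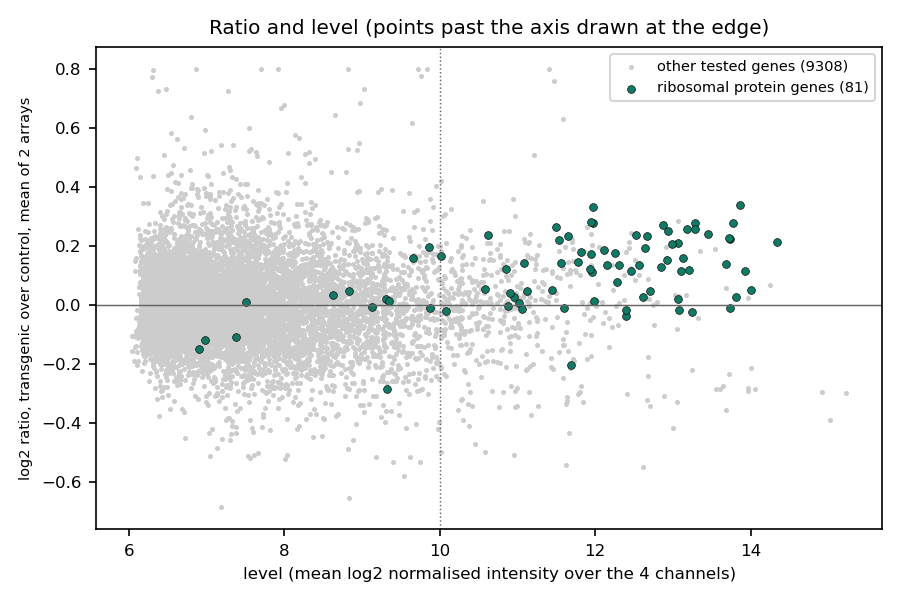
Mean log2 ratio of transgenic over control thymus against level (mean log2 normalised intensity over the 4 channels) for 81 ribosomal protein genes (green) and 9308 other tested genes (grey), with a dotted line at a level of 10. The 68 ribosomal protein genes right of the line have a median of 0.14, and the other genes there are centred near 0.

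Of the genes with several measured probes (30), 7 had probes with mean ratios of both signs. The median range between probes of a gene was 0.067. The largest was 0.38, for Rps4x, where the bright probe read 0.16 and 0.35 on arrays 1 and 2 and a dim probe read -0.13 and -0.11. For Rpl11 the bright probe's 0.28 stood against 0.058 on a dim probe, and for Rpl22 the dimmer probe read 0.15.

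The array also carried probes for transcripts that resemble ribosomal protein genes, often processed copies whose sequence is nearly that of the parent gene. Signal on such probes and on the gene's own probe can come from the same transcript. Of 71 such probes outside the name rule, 53 were measured, with a median log2 ratio of 0.10 (0.040 and 0.16 on arrays 1 and 2). Of the 53, 28 were higher on both arrays and none lower, against 28.3% and 29.1% of all tested genes. Of the same 53 probes, 38 lay within 0.1 of the ratio of the gene they resemble. The 11 probes resembling Rps2 had a median of -0.0075 and the 6 resembling Rpl7a had -0.053, next to -0.015 and -0.0096 for those genes' own probes. The 6 like Rpl7a were lower on array 1 (-0.43 to -0.19) and higher on array 2 (0.040 to 0.24), as were all 3 own probes of Rpl7a (-0.44 to -0.17, then 0.092 to 0.23). A probe resembling Rpl21 read 0.061 and 0.36 on the arrays, opposite to the -0.34 and -0.22 of the predicted-transcript probe that stood for Rpl21. The look-alike probe was the brighter, at a level of 11.1 against 9.3. The lowest gene of the set thus had a look-alike probe of the opposite sign. The 2 measured probes resembling Rpl31 were brighter than its own and had means of 0.18 and 0.14, against -0.11 for Rpl31.

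**Figure D4:**
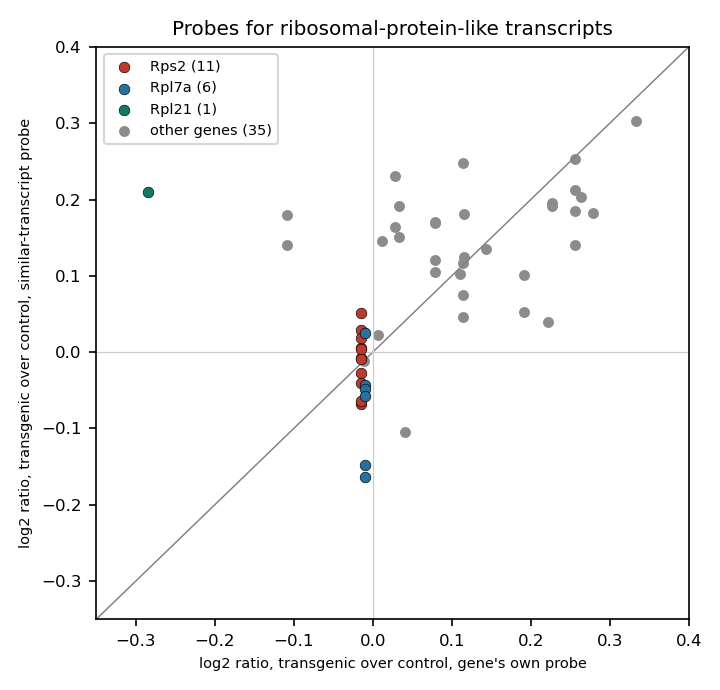
Mean log2 ratio of transgenic over control thymus for 53 probes of transcripts that resemble a ribosomal protein gene (vertical) against the gene's own probe (horizontal), with a line of equality. The 11 Rps2-like and 6 Rpl7a-like probes have medians of -0.0075 and -0.053, while the Rpl21-like probe lies at 0.21 against -0.28.

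Mitochondrial ribosomal protein genes and genes for ribosome assembly did not read higher as groups. The 76 measured mitochondrial ribosomal protein genes, of 78, had a median of -0.019, with 19 (25%) higher and 24 (31.6%) lower on both arrays. These shares were near the 28.3% and 29.1% of all tested genes. Of 42 genes for ribosome assembly and ribosomal RNA synthesis 36 were measured, with a median of -0.051, 5 (13.9%) higher and 15 (41.7%) lower. Wdr12 (0.21 ± 0.13) and Polr1d (0.19 ± 0.052), an assembly factor and a subunit of RNA polymerase I, were the highest. Nop2 (-0.37 ± 0.19) and Tcof1 (-0.24 ± 0.24), a ribosomal RNA methyltransferase and a nucleolar factor, were the lowest.

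Translation factors and other genes with TOP-type messenger RNAs were mixed. All 21 were measured, 9 (42.9%) higher and 4 (19.0%) lower on both arrays, against the 28.3% and 29.1% of all tested genes. Their median of 0.033 was above 0 in 7 of the 9 scalings and turned to -0.0079 when loess was fitted on probes well above background in all 4 channels and to -0.0053 with median centring. Hnrnpa1 (0.31 ± 0.23) and Eif3e (0.26 ± 0.20) were the highest. Eef2 (-0.16 ± 0.68) and Eif3a (-0.14 ± 0.082) were the lowest, and Eef2 had opposite signs on the arrays.

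Of 21 regulators of ribosomal protein genes and growth signalling 19 were measured, with a median of -0.089 that stayed negative over the 9 scalings. On both arrays 2 (10.5%) were higher and 14 (73.7%) lower, against 28.3% and 29.1% of all tested genes. The list mixes genes that promote growth signalling with genes that restrain it, so these counts give no direction of that signalling. Mtor, the kinase of that pathway, read 0.24 ± 0.31 and Rps6kb1, the S6 kinase, 0.086 ± 0.074. Yy1 (-0.22 ± 0.099), a transcription factor, and Rptor (-0.17 ± 0.15), the partner of mTOR in its complex, were the lowest. These lists differ from the ribosomal protein genes in probe brightness, and the difference between the groups was not tested.

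**Figure D5:**
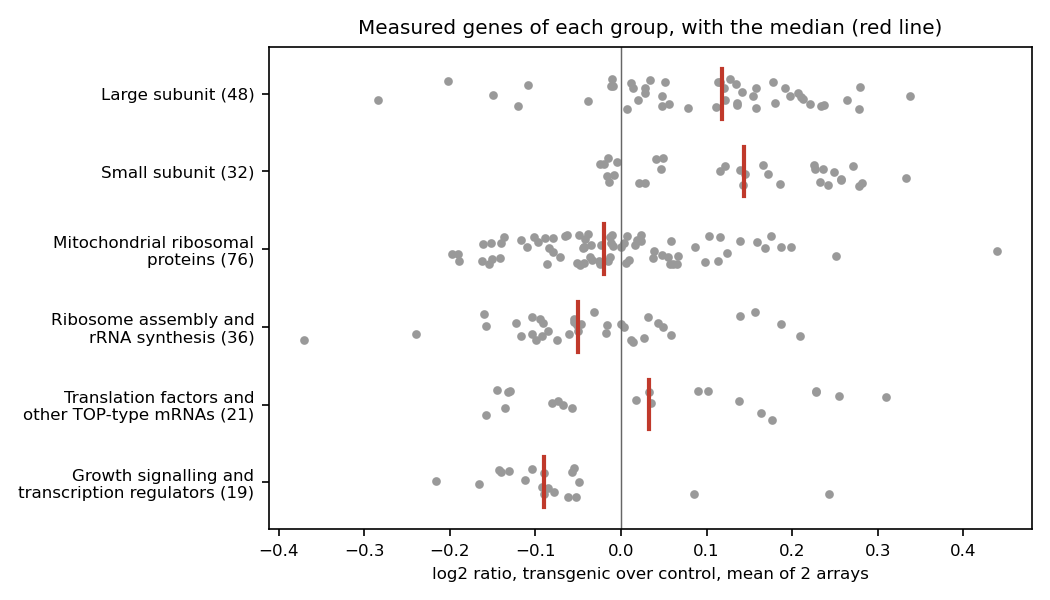
Mean log2 ratio of transgenic over control thymus for each measured gene (grey points) and the median (red line) in 6 groups of genes. The medians of the large and small subunit genes lie at 0.12 and 0.14, that of translation factors and TOP-type genes at 0.033, and those of the mitochondrial ribosomal protein, ribosome assembly and regulator genes below 0.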

How the data were processed

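Thymus RNA of both genotypes was hybridised on 2 two-colour Agilent arrays with exchanged dyes. The deposited scanner files hold mean and local background intensity per spot and channel on a linear scale, as Feature Extraction 9.5.1.1 wrote it, per the file headers. The same files give a log10 ratio (red divided by green, from processed signals) with a p-value from an error model, per the file headers, and the deposited table of log10 ratios equals it within 5e-10, unturned for the swapped dyes.

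Mean intensity was corrected by normexp with an offset of 50 and normalised by loess within each array, with control and outlier spots at weight 0 (limma 3.58.1, R 4.3.3). The offset shrinks ratios of dim probes. Array 2 was turned, so each log2 ratio reads transgenic over control. Of 41174 probes 12235 were tested, giving 9389 genes. The precision is limited by the number of arrays.

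Calls were the sign on both arrays, 1.2-fold on both, or 2-fold (a mean log2 ratio of at least 1, with 0.5 on each array), and limma across all tested genes was an alternative. The scripts were tested on simulated data. RefSeq (GRCm38.p6) named the accession of 77 of the 82 probes and gave the promoters. Probe positions are on mm8. Genes named were the 8 highest and 8 lowest, those past 1.2-fold, paralogues, stalk and 5S genes, Rpl22, Rps6, Rps19, Rps14, Rpsa and Rpl13a, proteins with other names, and the 2 highest and 2 lowest of other lists; any other was picked with its value known. A few genes within it are not reported here. The members and lists were chosen with earlier results of these data known. No column of another sample was present.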

Additional observations from a re-analysis of the deposited data

Results flagged for a closer look

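The comparisons used only probes taken by gene name, yet 53 probes of transcripts that resemble cytosolic ribosomal protein genes were also well above background. Their values stand beside those of the genes they resemble, and among them a probe described as an S20 pseudogene read 0.16 and 0.21 on arrays 1 and 2, against 0.18 and 0.051 for Rps20. The arrays form a single group of 2, so no group was large enough to look for outlying samples.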

How the results depend on the processing

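No paired analysis was possible because both arrays belong to 1 group of ratios and share no replicate number with another group. The median of the 81 genes was 0.12 and ran from 0.078 to 0.17 over the processing alternatives with both arrays, those of the large subunit from 0.073 to 0.16 and of the small subunit from 0.10 to 0.18. Without replicate 1 or replicate 2 the overall median was 0.16 or 0.037, that of the large subunit 0.15 or 0.068 and that of the small subunit 0.24 or 0.032. The large minus small difference was -0.096 without replicate 1 and 0.036 without replicate 2, a change of sign. Without replicate 1 and without replicate 2, single-array counts of the 81 genes were 69 and 53 higher and 12 and 28 lower. Of all 9389 tested genes, 4360 and 4960 were higher in these 2 cases. Counts at least 1.2-fold higher were 23 and 14, and at least 1.2-fold lower 0 and 5. The share of all tested genes past 1.2-fold on a single array was not counted. Median centring left 0 genes higher, 0 lower and 0 at least 1.2-fold higher on both arrays, since all were brighter in red on each. With loess fitted on probes well above background in all 4 channels, 10 genes were lower, against 28.6% of all tested genes. In that setting 0 were at least 1.2-fold higher. The log ratios of the scanner software and, separately, the deposited table gave 10 lower, against 29.1% of all tested genes. They gave 0 at least 1.2-fold higher and 1, Rpl7l1, at least 1.2-fold lower. Limma's moderated test called 0 higher and 0 lower at an adjusted p under 0.05. The cause of these changes was not tested except for median centring. With offset 0 the genes at least 1.2-fold higher were Rpl36 and Rpl36a in place of Rps14 and Rps15a. Added after seeing the data were a loess fitted without the ribosomal protein probes, with a median of 0.17 and Rps7 as a further gene at least 1.2-fold higher, and the inclusion of genes named by RefSeq but not by the array and of ribosomal proteins with other names, with a median of 0.12 over 86 genes. Of the values of single named genes under the alternatives, 428 moved by less than the SD between arrays and 16 by more, and neither gene at least 1.2-fold higher on both arrays changed sign. Part of that count was fixed beforehand. Leaving out 1 array always moves a mean by less than this SD, and some alternatives left a gene's value unchanged. The count therefore does not measure how robust the values are.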
